A study of Mus musculus with 18 samples.

Results

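A set of 10 genes of white and brown fat was followed in RNA from mouse kidney. They were taken by gene symbol from a deposited table of 18 kidney libraries, and 10 of 10 were found among 19518 genes. Of these 10 genes, 8 are made mainly by white fat cells (Adipoq, Lep, Retn, Cfd, Plin1, Plin4, Cidec and Fabp4) and 2 are known from brown fat (Ucp1 and Cidea). None was listed at 0 in any library. Of the 10 genes, 9 reached a signal of 1 in at least 3 libraries and entered the tests across genes. The exception was Lep, which reached 1 in 2 libraries.

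The libraries came from kidneys of ICR mice aged 10 weeks and formed 6 groups of 3. Besides controls, there was a group that received AOS (10 mg/kg) without the diet. The other 4 groups were fed a high fat diet (HFD), either alone, with AOS at the same 10 mg/kg (HFD+AOS), or with 1 of 2 FMTs. FMT stands for faecal microbiota transplantation, in which a donor's gut microbes are passed to a recipient. The labels name the FMTs AOS10mg/kg-FMT and control-FMT, written here HFD+AOS-FMT and HFD+control-FMT. The series was set up to look at FMT in kidneys damaged by a high fat diet. AOS, the make-up of the diet and the sex of the mice are not explained in the labels. Nothing in the labels says that the 3 libraries of a group came from separate animals, so the p-values measure the spread between these libraries, which may in part be technical.

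White fat stores triglyceride in 1 large droplet per cell, coated by perilipins and CIDE proteins, and secretes hormones such as adiponectin and leptin. Brown fat burns fatty acids for heat, through a channel protein that lets protons leak back into the mitochondrion. A layer of fat surrounds the kidney and fills its hilum. In the mouse this perirenal depot can hold both white and brown fat cells. The labels do not say whether fat was trimmed before freezing.

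Kidney markers were high in 17 of the 18 libraries. The 12 kidney genes on a marker list, among them Kap and Umod, summed to between 118389 and 169480 in 17 libraries. The library of control replicate 3 stood apart, with a kidney sum of 19808, adrenal transcripts summing to 992.7 (at most 4.38 elsewhere) and log2 correlations with the other libraries of 0.968 to 0.979, against 0.988 to 0.996 among the others. The sperm transcripts Prm1, Prm2, Tnp1 and Tnp2 summed to between 24.81 and 37.13 in control replicates 1 to 3 and HFD replicates 1 and 2. Elsewhere that sum was at most 0.30. Each of the 10 fat genes was at a low share of the total, and together they made up between 0.0152% and 0.0892% of a library's summed signal. In bulk tissue, fewer fat cells and less RNA per fat cell cannot be told apart.

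Promoter sequences of 4 genes are shown first. Adipoq and Plin1 are examples of the white fat genes that moved together, and Lep and Ucp1 did not follow them closely. These 4 promoters hold a match to a motif marked below, while those of Plin4, Cfd and Retn, not shown, hold none. Each run is the 250 bases before the transcript start in RefSeq, on GRCm38.p6 (mm10), read in the direction of the gene. RefSeq promoters were found for 8 of the 10 genes, with a pair of start sites for Cidec; Fabp4 and Cidea had no entry. Capitals mark matches, on either strand, to AGGTCA, the core bound by nuclear receptors, or to TTNNGNAA, a loose form of the site bound by C/EBP factors. The promoter of Adipoq lies at chr16:23146286-23146535 on the plus strand, that of Plin1 at chr7:79732777-79733026 on the minus strand, that of Lep at chr6:29059971-29060220 on the plus strand, and that of Ucp1 at chr8:83290098-83290347 on the plus strand.
Adipoq: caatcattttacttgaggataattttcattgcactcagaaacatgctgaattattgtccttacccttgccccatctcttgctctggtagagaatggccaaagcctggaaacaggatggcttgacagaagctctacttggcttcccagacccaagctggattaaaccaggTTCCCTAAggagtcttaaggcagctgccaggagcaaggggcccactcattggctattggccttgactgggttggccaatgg
Plin1: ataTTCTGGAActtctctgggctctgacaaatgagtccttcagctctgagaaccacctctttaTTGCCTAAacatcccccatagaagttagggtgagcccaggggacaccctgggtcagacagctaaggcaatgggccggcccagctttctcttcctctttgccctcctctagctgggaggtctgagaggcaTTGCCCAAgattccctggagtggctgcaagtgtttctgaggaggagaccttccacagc
Lep: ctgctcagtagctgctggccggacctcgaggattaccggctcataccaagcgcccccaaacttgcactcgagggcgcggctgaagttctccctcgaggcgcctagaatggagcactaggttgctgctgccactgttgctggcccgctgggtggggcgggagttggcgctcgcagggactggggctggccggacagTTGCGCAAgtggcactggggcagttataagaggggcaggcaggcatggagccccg
Ucp1: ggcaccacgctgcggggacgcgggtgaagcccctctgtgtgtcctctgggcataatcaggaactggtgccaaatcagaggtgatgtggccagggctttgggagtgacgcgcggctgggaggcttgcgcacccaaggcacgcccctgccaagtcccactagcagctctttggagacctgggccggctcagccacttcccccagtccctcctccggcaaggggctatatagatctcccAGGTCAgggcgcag

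TTNNGNAA stood in 5 of the 9 promoters (Adipoq, Plin1, Lep and both of Cidec), against 36.8% of all 32851 RefSeq promoters of the same length. Its strict form TTGCGCAA, which also matches TTNNGNAA, was in 1 of 9, that of Lep at 55 bases before the start, and in 0.164% of all promoters. AGGTCA was in 1 of 9, that of Ucp1 at 14 bases before the start, and in 14.0% of all. A direct repeat of this core with 1 base between the copies, known as a site for PPAR with RXR, was in 0 of 9 and in 0.0335% of all, the TATA box letters TATAAA in 0 of 9 and 12.4%, and the cyclic AMP response element TGACGTCA in 0 of 9 and 1.55%. These are matches of letters, not measured sites.

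Levels are given as the deposited signal, which behaves as a value per gene length and depth, so genes can be set side by side on it. Adipoq encodes adiponectin, a hormone made almost solely by fat cells. Its signal was 25.42, 12.04 and 4.11 in control replicates 1 to 3, 2.49, 5 and 33.29 with AOS, and 18.65, 9.52 and 34.92 with HFD. On the diet with AOS it was 5.36, 5.62 and 11.78, with HFD+AOS-FMT 5.32, 12.89 and 3.86, and with HFD+control-FMT 11.77, 7.79 and 8.81. The highest library, HFD replicate 3, held 14.0 times the lowest, AOS replicate 1, and every pair of groups overlapped. Group means were 21.0 ± 12.9 for HFD, 13.9 ± 10.8 for control, 13.6 ± 17.1 for AOS, 9.46 ± 2.07 for HFD+control-FMT, 7.59 ± 3.63 for HFD+AOS and 7.36 ± 4.85 for HFD+AOS-FMT (SD, n = 3 each), and no neighbours in that order differed beyond their spread. Within the AOS group alone the libraries differed 13.4-fold.

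Leptin, the hormone that reports fat stores to the brain, had the lowest median of the 10 genes. Lep ran from 0.09 in HFD+AOS-FMT replicate 1 to 1.69 in HFD replicate 1, with a median of 0.44. Its next highest library was HFD+AOS replicate 3, at 1.19, and the remaining 16 were below 1. The group means were 0.89 ± 0.71 for HFD, 0.78 ± 0.36 for HFD+AOS, 0.52 ± 0.28 for HFD+control-FMT, 0.39 ± 0.48 for HFD+AOS-FMT, 0.32 ± 0.29 for control and 0.24 ± 0.11 for AOS (SD, n = 3 each). The 3 HFD+AOS libraries (0.54, 0.60 and 1.19) lay above the 3 AOS libraries (0.11, 0.30 and 0.30). Among all genes tested, 24.2% had groups that did not overlap in this comparison. In a fit without the filter on low values, Lep differed there by 0.51 on the log2 scale (SE 0.27, limma adjusted p = 0.676). In the other comparisons made here its groups overlapped.

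Resistin, a cysteine-rich hormone that mouse fat cells secrete, showed another order. Retn was 47.64, 15.67 and 4.74 in the control libraries, 4.27, 3.41 and 33.95 with AOS, and 9.32, 3.58 and 12.39 with HFD. It was 8.37, 3.19 and 4.18 with HFD+AOS, 2.72, 2.89 and 2.36 with HFD+AOS-FMT, and 8.37, 3.15 and 1.97 with HFD+control-FMT. The 3 highest libraries were control replicate 1, AOS replicate 3 and control replicate 2, none of which was on the diet. All 3 HFD+AOS-FMT libraries lay in a narrow band below the lowest HFD library.

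Adipsin, or complement factor D, is a serine protease of the alternative complement pathway that fat cells release in bulk. Cfd ran from 13.66 in AOS replicate 2 to 215.78 in AOS replicate 3, with a median of 35.57. Both extremes therefore came from 1 group, whose mean was 81.4 ± 116 (SD, n = 3).

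The droplet proteins followed a similar order of libraries. Plin1 encodes perilipin 1, which guards the droplet against lipases, and ran from 0.48 in AOS replicate 1 to 6.22 in AOS replicate 3. Plin4, a perilipin that coats small new droplets, ran from 0.49 in control replicate 3 to 4.07 in AOS replicate 3. Cidec, which fuses droplets into 1 large one, was at 1.44 in control replicate 3 and at 22.82 in AOS replicate 3. For these 3 genes the same library was highest, and the highest value was 13, 8.31 and 15.8 times the lowest.

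Fabp4 encodes a fatty acid carrier of fat cells that capillary endothelium also makes. It had the highest level of the 10 genes in every library and the smallest range, 61.89 in HFD+AOS replicate 1 to 394.1 in HFD replicate 3, a 6.37-fold span. Even the library with the least Adipoq, AOS replicate 1, held 87.25 of Fabp4, so the ratio of Fabp4 to Adipoq was highest there, at 35.0, and lowest in AOS replicate 3, at 8.21. The 7 endothelial markers on the list summed to between 55.24 and 130.5, and their correlation with the white fat profile described below was -0.21 over 18 libraries and -0.08 without control replicate 3, which had their highest sum. How these markers relate to Fabp4 itself, or to its ratio to Adipoq, was not tested.

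**Figure D1:**
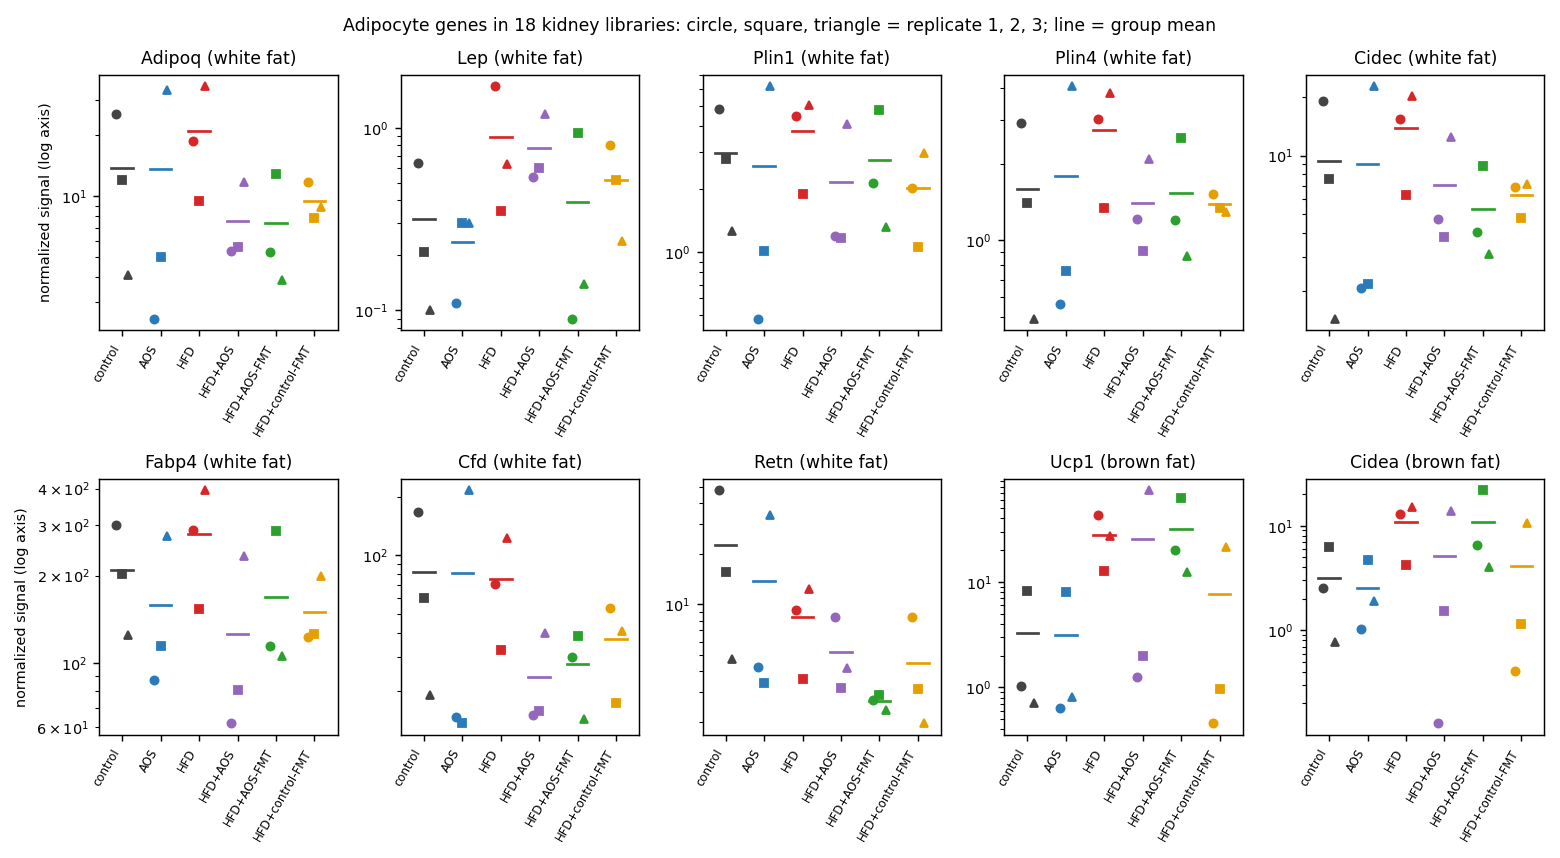
Signal of each of the 10 fat genes on a log axis in each of the 18 kidney libraries, with 1 point per library and the 6 groups side by side. The spread within a group runs from 1.19-fold (Plin4 in HFD+control-FMT) to 105-fold (Cidea in HFD+AOS). In the comparisons made here, groups overlap for most genes. For Ucp1 the 3 HFD points (12.62 to 42.85) lie above the 3 control points (0.72 to 8.18).

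Ucp1 encodes uncoupling protein 1, the proton channel of brown fat, and it spanned the widest range apart from Cidea. It was 1.03, 8.18 and 0.72 in the control libraries, 0.64, 7.98 and 0.82 with AOS, and 42.85, 12.62 and 27.52 with HFD. It was 1.27, 2.00 and 73.64 with HFD+AOS, 20.28, 62.48 and 12.35 with HFD+AOS-FMT, and 0.46, 0.96 and 21.59 with HFD+control-FMT. The libraries fell into 2 sets with a gap between 2.00 and 7.98: 8 libraries below it and 10 above. All 3 HFD and all 3 HFD+AOS-FMT libraries were in the upper set, and each of the other 4 groups had 1 library there.

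Cidea, a CIDE protein found on droplets of brown fat cells, had a similar order of libraries. Cidea was 2.52, 6.20 and 0.77 in the control libraries, 1.02, 4.70 and 1.89 with AOS, and 12.93, 4.18 and 15.22 with HFD. It was 0.13, 1.52 and 13.71 with HFD+AOS, 6.52, 21.72 and 4.06 with HFD+AOS-FMT, and 0.41, 1.16 and 10.70 with HFD+control-FMT. In the 8 libraries with low Ucp1 it lay between 0.13 and 2.52, and in the 10 others between 4.06 and 21.72, with no overlap. Highest over lowest was 160.1 for Ucp1 and 167.1 for Cidea.

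**Figure D2:**
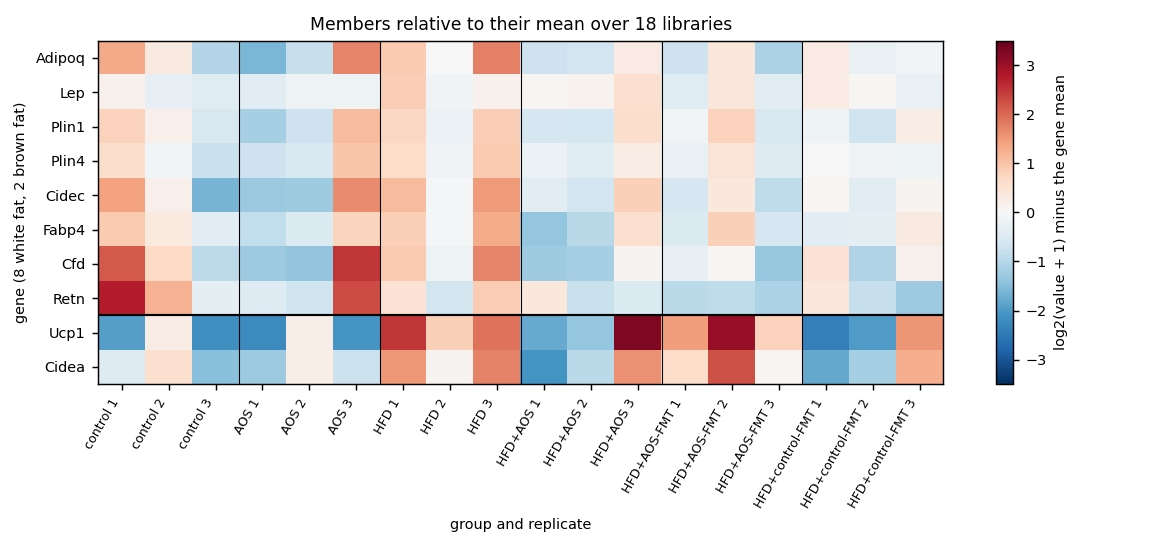
Each gene's log2(signal + 1) minus its mean over 18 libraries, as colour, with genes in rows and libraries in columns by group. The white fat genes share columns of high values (control replicate 1, AOS replicate 3, HFD replicates 1 and 3), while Ucp1 and Cidea share others, such as HFD+AOS replicate 3.

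Most of this variation lay inside groups. Of the variance of log2(signal + 1) over 18 libraries, 76.6% for Adipoq, 85.8% for Plin1, 83.0% for Plin4 and 83.1% for Cidec was within groups. The other genes were at 77.0% for Cfd, 69.9% for Fabp4, 66.6% for Cidea, 64.5% for Lep, 60.1% for Retn and 53.6% for Ucp1. A gene with no group effect has a share of 70.6% on average, from 12 of 17 degrees of freedom, and the median over all tested genes was 60.9%. HFD replicate 3 and control replicate 1 were each among the 4 highest libraries for 7 of the 8 white fat genes, and AOS replicate 3 and HFD replicate 1 for 6. AOS replicate 1 and HFD+AOS-FMT replicate 3 were each among the 4 lowest for 7.

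The white fat genes moved together from library to library. The log2(signal + 1) of Cidec followed that of Adipoq with a Pearson r of 0.96 and a Spearman rho of 0.97 over 18 libraries (permutation adjusted p = 2e-05 for each, two-sided). Here 10 relations were computed and adjusted together, and 1e-05 was the smallest p the permutations could give. Plin4 had r = 0.96 and rho = 0.97, Cfd 0.94 and 0.91, Plin1 0.91 and 0.87, and Fabp4 0.87 and 0.88, each with a permutation adjusted p of 2e-05 for r and at most 3e-05 for rho. Without HFD replicate 3 and AOS replicate 3, the libraries farthest from the median of Adipoq, r stayed between 0.83 and 0.94 for these 5 genes. It was between 0.87 and 0.98 among deviations from the group means, and between 0.85 and 0.97 in the 13 libraries without sperm transcripts.

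Retn and Lep followed less closely in value. For Retn, r with Adipoq was 0.71 and rho 0.57 (permutation adjusted p = 0.00114 and 0.0179), with r of 0.61 without the libraries farthest from the median and 0.83 among deviations from group means. For Lep, r was 0.51 and rho 0.65 (permutation adjusted p = 0.0374 and 0.00679), and r was 0.69 without those libraries. The Lep relation no longer passed 0.05 for r when any one of 6 libraries was left out: r was 0.472 without control replicate 3, 0.454 without AOS replicate 1, 0.501 without AOS replicate 2, 0.478 without HFD replicate 1, and 0.486 and 0.474 without HFD+AOS-FMT replicates 1 and 3. In the 13 libraries without sperm transcripts it was 0.45. Over the 28 pairs of white fat genes, r ran from 0.18 to 0.97 with a median of 0.84, and over the 16 pairs of a white with a brown gene from -0.33 to 0.70 with a median of 0.37.

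Over all 18 libraries, neither brown fat gene passed 0.05 with Adipoq. For Ucp1, r was 0.22 and rho 0.34 (permutation adjusted p = 0.382 and 0.172). For Cidea, r was 0.40 and rho 0.47 (permutation adjusted p = 0.113 and 0.0551). Ucp1 and Cidea had r = 0.94 and rho = 0.91 (permutation adjusted p = 2e-05 for each). Because Ucp1 split the libraries into 2 sets, relations are also given within each set, with 10 further relations adjusted together. In the 10 libraries with more Ucp1, Ucp1 and Cidea had r = 0.87 and rho = 0.84 (permutation adjusted p = 0.00488 and 0.00998). In the 8 with less, r was 0.22 and rho 0.31 (permutation adjusted p = 0.705 and 0.576). With Adipoq, Ucp1 had r = 0.48 and rho = 0.60 in the upper set (permutation adjusted p = 0.227 and 0.124) and r = -0.08 and rho = 0.10 in the lower (permutation adjusted p = 0.860 and 0.840). Cidea with Adipoq gave r = 0.71 in the upper set (permutation adjusted p = 0.0415) and 0.55 in the lower (permutation adjusted p = 0.227). Cidec kept its relation to Adipoq in both sets, with r = 0.94 in the 10 and 0.97 in the 8 (permutation adjusted p = 4e-04 and 0.001). These sets were drawn after the values had been seen.

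**Figure D3:**
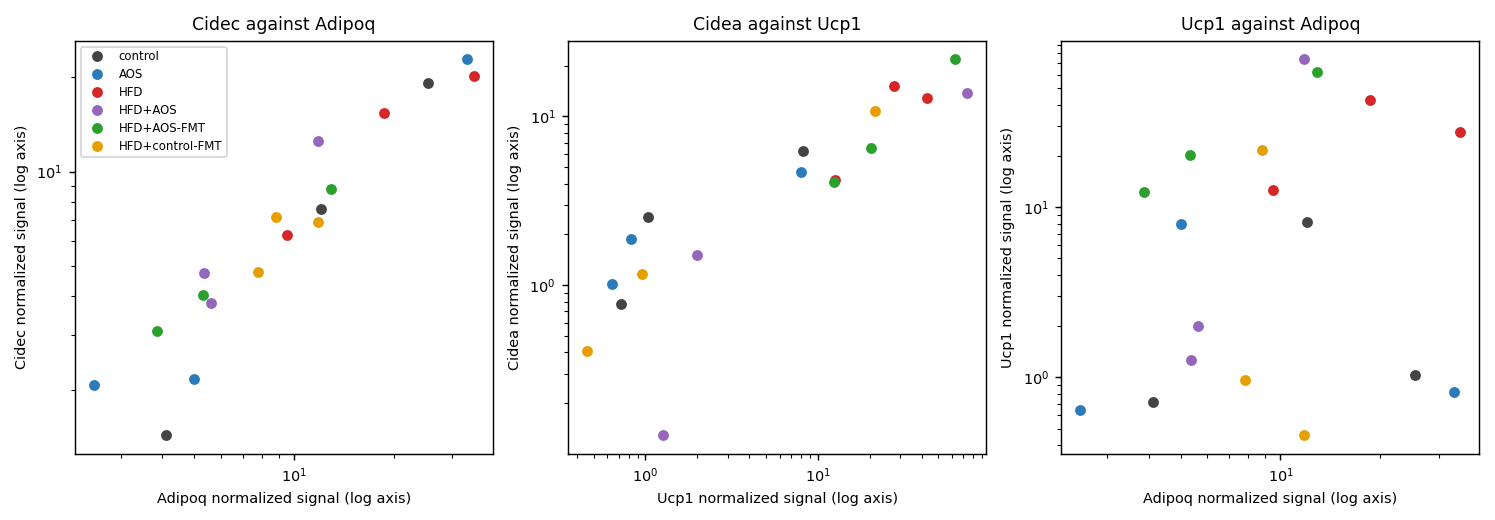
Signal of Cidec and of Ucp1 against that of Adipoq, and of Cidea against that of Ucp1, on log axes, with 1 point per library coloured by group. Cidec lies along a line with Adipoq, Ucp1 does not, and Ucp1 and Cidea fall into a low set of 8 libraries and a high set of 10.

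Genes outside the 10 with the most similar pattern were ranked by Pearson r over 18 libraries. The white fat profile is the mean over the 7 tested white fat genes of log2(signal + 1) after each gene's own mean is taken off. Its closest genes were Abcd2, a peroxisomal transporter of very long fatty acids (r = 0.96), Car3, a carbonic anhydrase abundant in fat cells (0.95, with levels of 18.77 to 217.8), Adrb3, the beta-3 adrenergic receptor (0.90), Pnpla3, a lipase-like droplet protein (0.89), and Adig, adipogenin (0.87). Next came Lipe, hormone-sensitive lipase (0.87), Arxes2 (0.86), Fam213a (0.85), Hp, haptoglobin (0.84), Aoc3 (0.83), Lgals12, a galectin of lipid droplets (0.81), and Ifi27l2a (0.81). Some of these were low: Abcd2 reached at most 1.42, Adrb3 2.32, Pnpla3 1.38 and Lgals12 1.79. Fam213a was high but ran only from 202.6 to 241.5. In all, 30 of 12021 other genes, or 0.25%, had r of at least 0.7. On a list of other adipocyte-enriched genes it was 9 of 20 tested (Car3, Adig, Adrb3, Rbp4, Nnat, Aoc3, Orm1, Hp and Slc36a2).

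With Ucp1 the closest genes reported here were Cox8b, a subunit of cytochrome oxidase typical of brown fat and muscle (r = 0.92), and S100b, a calcium-binding protein (0.87), then Ylpm1 (0.78), Trarg1 (0.76) and Prkar2b, a regulatory subunit of protein kinase A (0.74). Cox8b ran from 16.25 to 73.91 in the 10 libraries with more Ucp1 and from 1.40 to 13.36 in the other 8. Within the 10, Cox8b and Ucp1 had r = 0.97 and rho = 0.96 (permutation adjusted p = 2e-04 and 4e-04), and within the 8, r = -0.20 and rho = -0.17 (permutation adjusted p = 0.705 and 0.779). Cox8b is named here for its r with Ucp1 over these same libraries, and the sets were split by Ucp1. The p-values take account of neither choice, so they are no separate support for the relation. All 8 skeletal muscle markers summed to at most 3.93 in any library. On the list of other brown and beige fat genes, 2 of 9 tested (Cox8b and S100b) had r of at least 0.7 with Ucp1, against 0.0915% of all other genes, and 0 of 9 with the white fat profile. Levels on this list differed widely. Elovl3, a fatty acid elongase, reached at most 0.66, Dio2, the enzyme that activates thyroid hormone, at most 0.30, and Otop1 at most 0.90. Zic1, a transcription factor of the classical brown depots, was listed at 0 in 17 libraries and at 0.01 in control replicate 1. Cox7a1, an oxidase subunit also made outside fat, ran from 42.34 to 99.44, Gk, glycerol kinase, from 124.9 to 210.1, Pank1 from 50.63 to 95.57, and Ppargc1a, a coactivator of mitochondrial genes, from 5.62 to 10.44.

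The lists of other fat functions held few genes that followed the profile. Of 12 tested genes of lipolysis and droplets, 1 (Lipe) had r of at least 0.7 with the white fat profile. Of 19 genes of fat uptake and synthesis and of 9 adipogenic transcription factors, 0 had. Of 8 tested receptors for fat hormones, 2 had, Adrb3 and Adipor2 (r = 0.76). Lpl, lipoprotein lipase, ran from 39.24 to 251.0 and Pparg, the nuclear receptor that drives fat cell formation, from 0.55 to 4.05. Of the adiponectin receptors, Adipor1 stayed between 48.49 and 61.08 and Adipor2 between 28.51 and 36.63, while the leptin receptor Lepr ran from 0.25 to 1.33.

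Levels of other cells were set beside the white fat profile, and their part in it was not tested. Over 18 libraries, its correlation with the summed signal was 0.30 for 8 fat progenitor genes (sums of 607.2 to 1787), 0.22 for 9 macrophage genes (62.81 to 187.2), 0.17 for 6 genes of the mesothelium and capsule (2.50 to 20.31), -0.27 for 13 adrenal genes and 0.28 for 10 male germ cell genes (12.45 to 63.79). Without control replicate 3, which held the most of the macrophage, mesothelial and adrenal genes, these were 0.36, 0.58, 0.50, -0.21 and 0.40. Of the genes tested on these lists, 0 had r of at least 0.7 with the profile or with Ucp1.

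The diet was compared with no diet first. In HFD against control, 0 of 9 fat genes passed limma's test at an adjusted p of 0.05, against 0% of 12030 genes tested, and 1 of 9 (Ucp1) had an unadjusted p under 0.05, as 2091 of all genes did. Of the 9, 8 had a higher and 1 a lower mean of log2 values (Cfd, among the 8, had the lower mean signal, 75.4 against 82.4), with a median log2 difference of 0.57 against -0.10 over all genes. Ucp1 was 27.7 ± 15.1 with HFD and 3.31 ± 4.22 in control (SD, n = 3 each), a log2 difference of 3.02 (SE 1.30, 95% interval 0.24 to 5.80, limma adjusted p = 0.270). Its groups did not overlap, and it was the only such gene of the 9, against 15.7% of all genes. Retn had the log2 difference of the other sign, -0.96 (SE 0.80, limma adjusted p = 0.485), with 8.43 ± 4.47 on the diet and 22.7 ± 22.3 in control. Adipoq differed by 0.69 on the log2 scale (SE 0.76, limma adjusted p = 0.593), and by 0.07 to 1.26 when single libraries were left out. Without control replicate 3, the library that stood apart, the log2 difference was 2.58 for Ucp1, -1.73 for Retn and 0.07 for Adipoq, and those of Plin1 and Cfd turned to -0.04 and -0.61. Without control replicate 1 the difference of Retn was -0.19. Sperm transcripts were in 5 of these 6 libraries, all but HFD replicate 3. With an added term for them, chosen after seeing the data, the log2 difference was 2.94 for Ucp1, -1.28 for Retn and 0.25 for Adipoq, and that of Cfd turned from 0.17 to -0.27. The term was estimated from the split inside HFD, the only group with both kinds of library. These values thus set HFD replicates 1 and 2 against control, as leaving out HFD replicate 3 would.

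The other comparison of diet with no diet was in mice given AOS. In HFD+AOS against AOS, 0 of 9 passed limma's test, against 0% of all genes, and 0 of 9 had an unadjusted p under 0.05, as did 1333 of all genes. The median log2 difference was -0.03. For Ucp1 the log2 difference was 1.42 (SE 1.30, limma adjusted p = 0.755), carried by HFD+AOS replicate 3 at 73.64: without that library it was -0.20. No gene of the 9 had groups that did not overlap, against 24.2% of all genes. Lep, left out of the 9 by the filter, did have such groups, as given above.

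AOS was compared with control without the diet and with HFD on it. In AOS against control, 0 of 9 passed limma's test, against 0.0333% of all genes, and 0 of 9 had an unadjusted p under 0.05, as did 1529 of all genes. All 9 had a lower mean of log2 values, with a median log2 difference of -0.41 and limma adjusted p-values of 0.614 to 0.998. Plin4, at -0.00, turned to 0.04 with quantile normalization, and its mean signal was higher with AOS (1.80 against 1.60). No gene had groups that did not overlap (13.2% of all genes). Without control replicate 3 all 9 stayed lower, with log2 differences from -0.35 for Plin4 to -1.61 for Retn. In HFD+AOS against HFD, 0 of 9 passed, against 0.823% of all genes, and 1 of 9, Fabp4, had an unadjusted p under 0.05, as did 1811 of all genes. All 9 again had the lower mean, with a median of -1.26 against 0.01 over all genes. This was not particular to AOS. Against the same HFD libraries, all 9 also had the lower mean of log2 values with HFD+control-FMT (median -0.92). With HFD+AOS-FMT it was 8 of 9 (median -0.77). Fabp4 was 125 ± 94.5 with HFD+AOS and 278 ± 121 with HFD, a log2 difference of -1.29 (SE 0.56, 95% interval -2.49 to -0.08, limma adjusted p = 0.296). Adipoq differed by -1.26 (SE 0.76, 95% interval -2.88 to 0.36, limma adjusted p = 0.480), and by -1.71 without HFD replicate 2 and -0.82 without HFD replicate 3. No gene of the 9 had groups that did not overlap, against 28.2% of all genes. The test of whether the AOS difference was the same on both diets gave 0 of 9 genes and 0% of all genes with limma, 0 of 9 and 1490 of all genes with an unadjusted p under 0.05. Adjusted p-values ran from 0.623 to 0.914 for the 9.

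The FMT groups were set against HFD and against each other; they share the HFD libraries with the comparisons above, so their values are not independent of these. In HFD+AOS-FMT against HFD, 0 of 9 passed limma's test, against 0.175% of all genes, and 0 of 9 had an unadjusted p under 0.05, as did 1595 of all genes. Adipoq had a log2 difference of -1.37 (SE 0.76, 95% interval -2.99 to 0.25, limma adjusted p = 0.459), and Ucp1 one of 0.03 (SE 1.30, 95% interval -2.75 to 2.81). Retn was the 1 gene of 9 with groups that did not overlap (25.2% of all genes), at 2.66 ± 0.271 against 8.43 ± 4.47, a log2 difference of -1.23 (SE 0.80, limma adjusted p = 0.541). In HFD+control-FMT against HFD, 0 of 9 passed, against 0% of all genes, with 0 of 9 and 541 of all genes at an unadjusted p under 0.05. No gene of the 9 had groups that did not overlap, against 15.4%. Ucp1 differed by -2.68 (SE 1.30, 95% interval -5.46 to 0.10, limma adjusted p = 0.9996), at 7.67 ± 12.1 against 27.7 ± 15.1.

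The FMTs were then compared directly. In HFD+AOS-FMT against HFD+control-FMT, 0 of 9 passed limma's test, against 0% of all genes, with 0 of 9 and 845 of all genes at an unadjusted p under 0.05. Ucp1 was 31.7 ± 26.9 and 7.67 ± 12.1 (SD, n = 3 each), a log2 difference of 2.71 (SE 1.30, 95% interval -0.07 to 5.49, limma adjusted p = 0.713). Its groups overlapped, since HFD+control-FMT replicate 3, at 21.59, was above HFD+AOS-FMT replicates 1 and 3. No gene of the 9 had groups that did not overlap, against 18%. In the F test over all 6 groups, 0 of 9 passed, against 1.02% of all genes, with 0 of 9 and 2135 of all genes at an unadjusted p under 0.05. Its smallest limma adjusted p among the 9 was 0.332, for Ucp1.

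**Figure D4:**
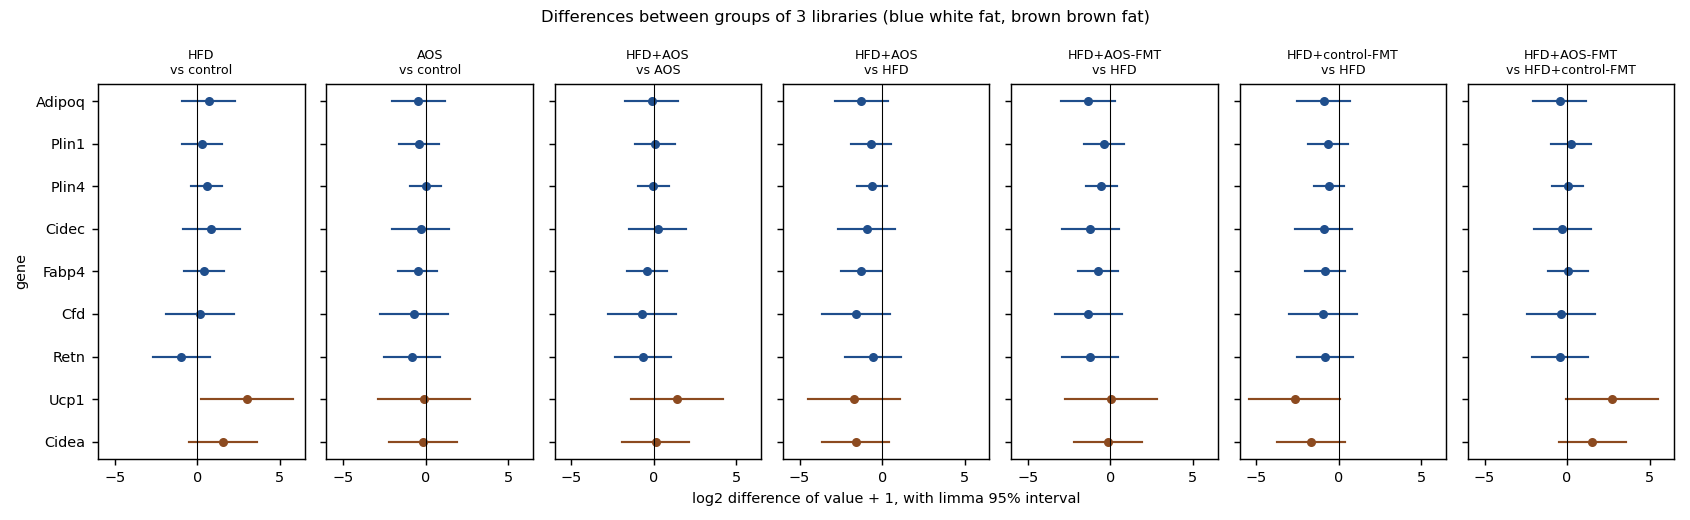
Log2 differences of the 9 tested fat genes in the 7 comparisons of groups, as points with 95% intervals from limma. Nearly all intervals cross 0; those of Ucp1 in HFD against control (0.24 to 5.80) and of Fabp4 in HFD+AOS against HFD (-2.49 to -0.08) do not, and neither passed after adjustment over all genes.

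Setting each gene against Adipoq took out much of the spread between libraries. In an added model with log2(Adipoq + 1) as a term, chosen after the values had been seen, the SE of the HFD against control difference was 0.11 for Plin4 (0.43 without the term), 0.22 for Cidec (0.81), 0.21 for Plin1 (0.57) and 0.31 for Cfd (0.96). It was 1.36 for Ucp1 (1.30). With this term Retn differed by -1.56 on the log2 scale (SE 0.48, limma adjusted p = 0.375). None of the fat genes passed the threshold with it in any comparison.

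The ratio of Retn to Adipoq was then taken in single libraries. It was 1.15 to 1.87 in control, 0.682 to 1.71 with AOS, 0.355 to 0.50 with HFD, 0.355 to 1.56 with HFD+AOS, 0.224 to 0.611 with HFD+AOS-FMT and 0.224 to 0.711 with HFD+control-FMT. The median was 1.23 over the 6 libraries without the diet and 0.452 over the 12 with it. Of the 12, HFD+AOS replicate 1, the highest at 1.56, and HFD+control-FMT replicate 1, at 0.711, lay within the range of the 6. The ratio of Cidec to Adipoq spanned 3.04-fold and that of Plin4 2.05-fold over 18 libraries, against 254-fold for Ucp1. The ratio of Ucp1 to Adipoq was 3.20 to 4.85 in the HFD+AOS-FMT libraries, 0.788 to 2.30 with HFD, 0.237 to 6.25 with HFD+AOS, 0.0391 to 2.45 with HFD+control-FMT and 0.0246 to 1.60 in those without the diet. Of the 4 groups on the diet, HFD+AOS-FMT was the only one whose Ucp1 ratio did not overlap the libraries without it. This was not particular to Ucp1. HFD+AOS-FMT was also clear of them for Cidea (1.05 to 1.69 against at most 0.94), Plin1 (0.342 to 0.400 against at most 0.307) and Retn. HFD was clear for Retn too, and HFD+AOS for Lep (0.101 to 0.107 against at most 0.06). These overlaps were looked at after the values had been seen, and the share over all genes was not computed.

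**Figure D5:**
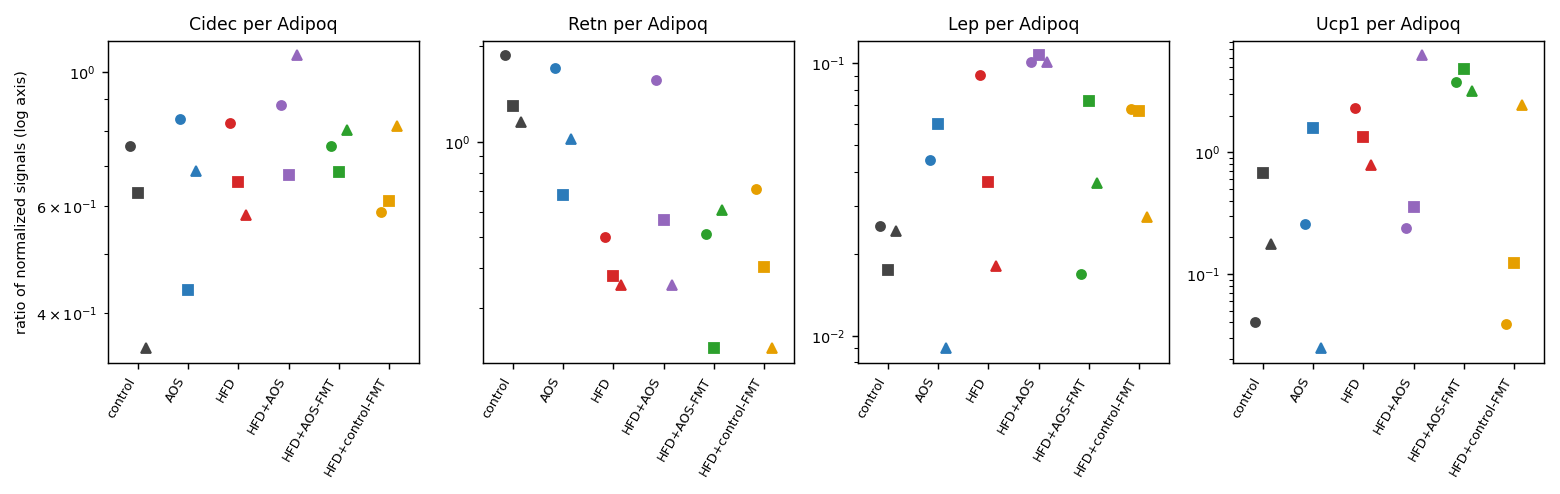
Ratios of Cidec, Retn, Lep and Ucp1 to Adipoq on a log axis, with 1 point per library by group. Cidec stays within 0.350 to 1.06. Retn is 0.682 or more in the 6 libraries without the diet and 0.224 to 1.56 in the 12 with it. Lep runs from 0.00901 to 0.107 and Ucp1 from 0.0246 to 6.25.

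The wider fat pathway lists held 101 genes of lipid droplets, fat uptake and synthesis, transcription factors, other adipocyte genes, brown fat, receptors and fat progenitors. Of these, 82 were tested, and they gave 0 genes higher and 0 lower past limma's threshold in each of the 8 comparisons. Between 4 and 11 of the 82 had an unadjusted p under 0.05, against 541 to 2091 of all 12030 genes. In the F test over 6 groups 1 of 82 passed, Scd1, a desaturase that makes oleic acid (limma adjusted p = 0.0443). Scd1 was 55.3 ± 27.1 in control and 40.6 ± 3.03 with AOS, and on the diet 23.1 ± 4.23 with HFD, 17.2 ± 4.5 with HFD+AOS, 17.9 ± 9.03 with HFD+AOS-FMT and 12.8 ± 2.93 with HFD+control-FMT (SD, n = 3 each). That call was lost in most fits with 1 library left out: 0 of the pathway genes passed in 16 of the 18, while 9 passed without control replicate 3. It was also lost with quantile normalization, with a replicate block and with the term for sperm transcripts, where 0 passed. Prm1, a protamine of sperm, was the only gene of all the lists to pass in a comparison of 2 groups, listed at 0 with AOS and at 11 ± 3.04 in control (limma adjusted p = 0.0499). No gene was called lower with AOS, Prm1 included, under quantile normalization or without any one of 10 libraries. These were the 3 of AOS, the 3 of HFD+control-FMT, control replicates 1 and 3, HFD+AOS replicate 1 and HFD+AOS-FMT replicate 2. The sperm term also gave none, but Prm1 is part of its definition, so it could not test that call.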

How the data were processed

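RNA was measured in 18 kidney libraries, 3 in each of 6 groups named in the labels. Per the labels' protocols, RNA came from frozen kidney by Trizol and a column kit. Alignment used Bowtie 0.12.2 and the mm10 build, per the submitters' processing notes. The counter, the annotation and how values were normalized are not stated there. The deposited table gives a signal per gene symbol and library with no stated unit. The column sums varied by 3.50% (coefficient of variation) and by 1.40% after weighting by transcript length, so the signal was treated as scaled for length and depth. No counting interval is given, because the read depth is unknown. Whole-number steps in low values of 47 genes put the relative depth of control replicates 3 and 1 at 0.879 and 0.914, and of the other 16 libraries at 0.976 to 1.02.

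Of 19545 entries, 26 symbols turned to dates and 1 second entry were left out. The test had been planned for normalized values and was used for this signal. Genes with a signal reaching 1 in 3 libraries (12030) were fitted as log2(signal + 1) in limma 3.58.1 (R 4.3.3), with all 18 libraries and 6 groups, trend and robust spread. P-values were two-sided and adjusted by Benjamini-Hochberg within a contrast, at 0.05. Log2 differences understate changes of low genes. Correlations used 100000 permutations (scipy 1.17.1). The 10 genes were all described; other genes were named where they passed the threshold, or as the 12 closest to the white fat profile and the 6 closest to Ucp1, of which 1 is not reported here. Genes of fat biology and levels of the receptors, and libraries that stood apart, were also named after their values were seen. The genes and lists were chosen with earlier results of these data known. The model was tested on simulated data. Alternatives were another pseudocount, no filter, quantile normalization, fits of single pairs of groups, a replicate block, other variance settings and each library left out, and, added after seeing the data, a term for sperm transcripts, a term for Adipoq, and correlations within sets of libraries. Gene positions follow GENCODE M21 and promoters RefSeq.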

Additional observations from a re-analysis of the deposited data

How the results depend on the processing

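The number of fat genes past limma's threshold stayed at 0 in all 8 comparisons and the F test under every alternative run, leave-one-out included. Counts over all genes moved. Without the filter on low values they were 25 in HFD against control, 149 in AOS against control, 45 for HFD+AOS set against HFD and 4 for the AOS effect by diet. With quantile normalization they were 1 in AOS against control, 4 in HFD+AOS against AOS and 9 in HFD+AOS-FMT against HFD. Fits of the compared groups alone gave 1 in HFD against control, 2 in HFD+AOS against AOS, 314 for HFD+AOS with HFD, 166 for HFD+AOS-FMT with HFD and 1 between the FMTs. Without trend and robust spread they were 4 in HFD+AOS against AOS and 13 in HFD+AOS-FMT against HFD. A term for sperm transcripts gave 0 in AOS against control, 7 for HFD+AOS with HFD and 1 for HFD+AOS-FMT with HFD. That term was estimated only from HFD replicates 1 and 2 against HFD replicate 3. The counts against HFD therefore rest on HFD replicate 3 alone on the HFD side, and the count for AOS against control carries that split. A term for Adipoq gave 13 in AOS against control, 1 in HFD+AOS against AOS, 11 for HFD+AOS with HFD and 0 for HFD+AOS-FMT with HFD. The causes were not tested.

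A replicate block gave 1 gene in AOS against control and 45 in HFD+AOS against HFD, and took the fat pathway genes passing the F test from 1 to 0. It moved no other count by more than 1.5 times. Same-numbered libraries had deviations correlated at -0.16 to 0.26, in no comparison above 0.1 for all 3 pairs, so the numbers were not taken to pair libraries.

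With single libraries left out, genes past the threshold ranged over 0 to 217 in HFD against control (217 without control replicate 2), 0 to 30 in AOS against control, 0 to 158 in HFD+AOS against AOS, 10 to 819 for HFD+AOS with HFD and 0 to 585 for HFD+AOS-FMT with HFD (158, 819 and 585 without control replicate 3), 0 to 8 in HFD+control-FMT against HFD, 0 to 14 between the FMTs and 0 to 1 for the AOS effect by diet. The Ucp1 difference ranged from -0.20 to 2.32 in HFD+AOS against AOS and from -0.61 to 0.51 in HFD+AOS-FMT against HFD. In the latter it was -0.12 with the sperm term, which leaves HFD replicate 3 alone on the HFD side. Ucp1 correlated with Adipoq at -0.0793 in the 8 libraries with low Ucp1 and with Cidea at 0.22 there. The correlation of Lep with Adipoq was 0.48 with quantile normalization and 0.45 in 13 libraries, and ranged over 0.45 to 0.63 with 1 library left out; that of Cidea ranged over 0.30 to 0.52. Of 497 log2 differences of the fat genes in 7 comparisons of groups under other settings 28 changed sign, 22 of them with the Adipoq term, and of 1134 with a library left out 49 did. Unknown read depth limits what low values such as those of Lep can show.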
